A study of Homo sapiens with 12 samples.

Results

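The genes described here are 55 genes of DNA replication and mitosis, named as a list and looked up by symbol among the 20263 genes of an RNA-seq count table. All 55 were found, and all 55 passed the filter on low counts. They comprise 26 genes that act in or at the entry to S phase, 28 genes that act in G2 and mitosis, and the G1 cyclin CCND1. The table holds 12 libraries from A375 cells, a human melanoma line, labelled as wild type, with 3 libraries in each of 4 groups: control cells (Ctrl), cells given DdBIC, cells given hemin, and cells given both (DdBIC+Hemin). DdBIC, written DBIC in the sample labels, is dodecyl 1H-benzo[d]imidazole-5-carboxylate, which the study used to trigger pyroptosis, and hemin is a soluble form of heme that the study added to counter it. Dose and time of the RNA-seq treatments, the vehicle given to Ctrl cells, and whether the 3 libraries of a group came from separate cultures are not given in the sources used here, so the p-values below measure only the spread between these libraries. The study's methods state that serum in the medium was reduced during DdBIC treatment. Whether Ctrl and Hemin cells had the same serum is not given there, and an effect of serum was not tested. The comparisons ask what DdBIC, hemin and their combination did to the mRNA of S-phase genes and of G2/M genes.

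Proliferating cells express replication and mitosis genes in waves. Late in G1, D-type and E-type cyclins with their kinases inactivate RB-family proteins, and E2F transcription factors then switch on genes for origin licensing, the replicative helicase, polymerases and nucleotide supply. Genes for mitotic cyclins, kinetochores and the spindle follow in G2, when the MuvB complex with B-MYB and FOXM1 acts on their promoters through the cell cycle genes homology region (CHR). When RB-family proteins are active, the DREAM complex holds both waves down. These mRNAs therefore report on how many cells of a culture are in each phase as well as on how much each cell makes, and in bulk RNA fewer cells of a phase and less RNA per cell cannot be told apart.

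The libraries held 37951275 to 44358912 counted reads, and the lowest count of any of the 55 genes in any library was 532. Correlations of log2 CPM (counts scaled to library size) between libraries of a group ran from 0.985 to 0.988. The melanoma markers that do not depend on pigment were present, while the pigment genes were nearly absent. SOX10 lay between 450 and 620 TPM (a level corrected for gene length and library size) and CSPG4 between 144 and 182, while MLANA and TYR stayed at or below 0.415 and 0.0373. The leukocyte genes PTPRC, CD3D and MS4A1 were listed at 0 in all 12 libraries and EPCAM did not exceed 0.287 TPM, while CD68, a lysosomal gene of macrophages and other cells, lay between 24.5 and 35.1, the stromal gene LUM between 4.11 and 7.03 and the epithelial gene KRT14 between 3.3 and 4.87 TPM.

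In Ctrl cells, levels of the 55 genes per unit length spanned from 19.5 ± 1.76 TPM (SD, n = 3) for CCNE2, an E-type cyclin, to 697 ± 12.2 TPM for MCM7, a subunit of the replicative helicase. Next below MCM7 stood CDC20, the activator of the anaphase-promoting complex, at 658 ± 3.78 TPM, and UBE2C, the ubiquitin-conjugating enzyme of that complex, at 582 ± 46.5 TPM. PCNA, the sliding clamp, and TYMS, which makes thymidylate, followed at 476 ± 13.1 and 473 ± 11.4 TPM, a difference inside their spread. The kinetochore motor CENPE and the phosphatase CDC25C were among the lowest, at 20.7 ± 2.65 and 26.4 ± 4.12 TPM. S-phase and G2/M genes had like levels in Ctrl cells, with medians of 93.2 and 104 TPM.

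Promoters of the 55 genes were compared for the elements that the background above names, because the 2 waves are read from different sequence. RefSeq promoter windows on GRCh38.p14, 250 bases before to 50 after the start, were at hand for 45 of the genes, 22 of S phase and 23 of G2/M. Where a symbol had several windows only the first listed was kept. This left out 7811 windows, so other starts of these genes were not searched. CCND1, POLD3, MCM4, UBE2C, TTK, AURKA, TPX2, BIRC5, MCM5 and CCNE2 had no window in the table. The 130 bases before the start are shown on the gene's own strand for 3 G2/M promoters with a CHR (CCNB2 at chr15:59105016-59105145 on the plus strand, PLK1 at chr16:23678759-23678888, plus, CDC20 at chr1:43358851-43358980, plus) and 3 S-phase promoters with an E2F element (CDT1 at chr16:88803659-88803788, plus, TYMS at chr18:657523-657652, plus, E2F1 at chr20:33686386-33686515, minus). Capitals mark the CHR letters, the E2F letters or CCAAT, the box bound by NF-Y.
CCNB2: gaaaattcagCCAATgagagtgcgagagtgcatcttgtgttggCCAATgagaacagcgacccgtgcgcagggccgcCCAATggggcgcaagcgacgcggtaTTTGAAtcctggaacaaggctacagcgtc
PLK1: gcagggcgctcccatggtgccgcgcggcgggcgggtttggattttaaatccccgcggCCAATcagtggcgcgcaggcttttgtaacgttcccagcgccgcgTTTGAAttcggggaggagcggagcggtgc
CDC20: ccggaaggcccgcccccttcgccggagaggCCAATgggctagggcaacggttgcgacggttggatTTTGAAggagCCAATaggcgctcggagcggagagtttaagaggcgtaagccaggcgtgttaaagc
CDT1: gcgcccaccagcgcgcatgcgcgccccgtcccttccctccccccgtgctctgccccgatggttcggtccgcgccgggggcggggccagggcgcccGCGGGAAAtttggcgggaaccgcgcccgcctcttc
TYMS: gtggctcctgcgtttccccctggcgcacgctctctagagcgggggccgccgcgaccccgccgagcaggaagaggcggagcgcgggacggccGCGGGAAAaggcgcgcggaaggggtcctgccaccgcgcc
E2F1: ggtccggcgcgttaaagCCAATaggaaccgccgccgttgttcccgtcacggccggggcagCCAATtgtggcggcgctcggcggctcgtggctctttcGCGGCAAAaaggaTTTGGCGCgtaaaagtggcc
The CHR was searched as TTTGAA or TTCGAA, the second of which reads the same on both strands, and the E2F element as TTTCCCGC, TTTCGCGC, TTTGCCGC or TTTGGCGC. All letters were searched on both strands, and overlapping matches count once per promoter. CHR letters stood in 17 of the 23 G2/M promoters (73.9%) and in 2 of the 22 S-phase promoters (9.09%), those of MCM6 and RRM1, against 16.6% of all 27305 promoters in the table and 11.2% of the 10930 promoters of genes tested here. E2F letters showed the opposite split, with 12 of 22 S-phase promoters (54.5%) and 2 of 23 G2/M promoters (8.7%), CDK1 and NUSAP1. Such letters stood in 3.33% of the promoters kept and in 5.14% of those of genes tested. CCAAT was common to both waves, in 73.9% of G2/M and 63.6% of S-phase promoters. It stood in 35.7% of the promoters kept and in 36.5% of those of genes tested. In CCNB2 and PLK1 the CHR began 29 bases before the start, and in CDC20 it began 65 bases before it. A match describes letters and was not tested as a binding site.

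**Figure D1:**
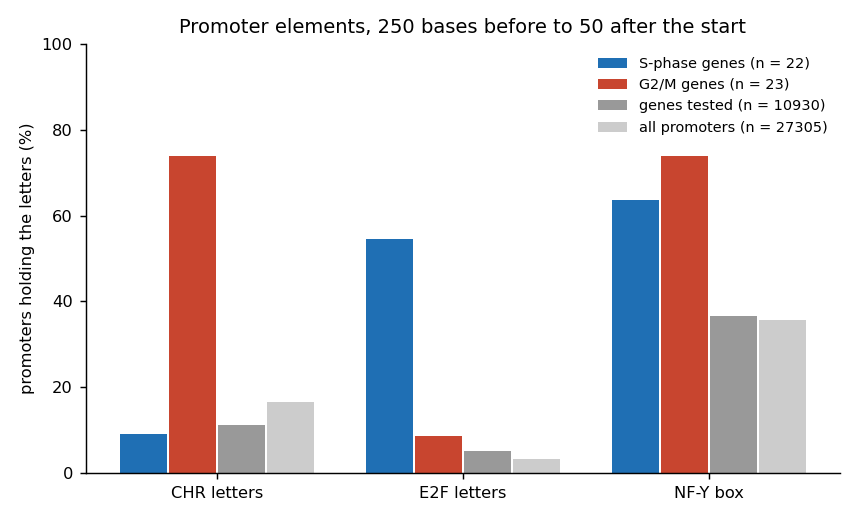
Share of promoter windows (percent, vertical axis) that hold CHR letters, E2F letters or the NF-Y box, for S-phase genes, G2/M genes, genes tested and all promoters of the RefSeq table. CHR letters mark 73.9% of the G2/M promoters and E2F letters 54.5% of the S-phase promoters.

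With DdBIC most mitotic genes were lower, while replication genes moved in both directions. Of the 28 G2/M genes, 19 fell in DdBIC against Ctrl, 1 rose and 8 did not pass the test (edgeR quasi-likelihood test, Benjamini-Hochberg adjusted p below 0.05 over 14287 genes). Among all genes tested 17.2% were called lower and 20.0% higher. The median log2 fold change of the G2/M genes was -0.24, a 15.6% decrease, beside -0.0082 over all genes, and 27 of the 28 values lay below 0. The S-phase genes had a median of -0.042, with 6 of 26 called higher and 7 called lower. Among the 8154 genes that averaged 17.2 CPM (the lowest mean of the 55) or more, 24.5% were called higher and 22.7% lower, so the S-phase shares were near those of all well-measured genes and the G2/M share of falls was not. Upper-quartile scaling moved the median of all genes to -0.069. With it the S-phase split became 3 higher and 13 lower, whereas the G2/M split became 1 higher and 24 lower. Shares of all genes called under that scaling are not given here. Changes were small on the whole and ran from -0.50 to 0.44 on the log2 scale. In all 33 genes called the DdBIC and Ctrl libraries did not overlap. The test favours such genes and the share over all genes is not given here, so this adds little to the calls.

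**Figure D2:**
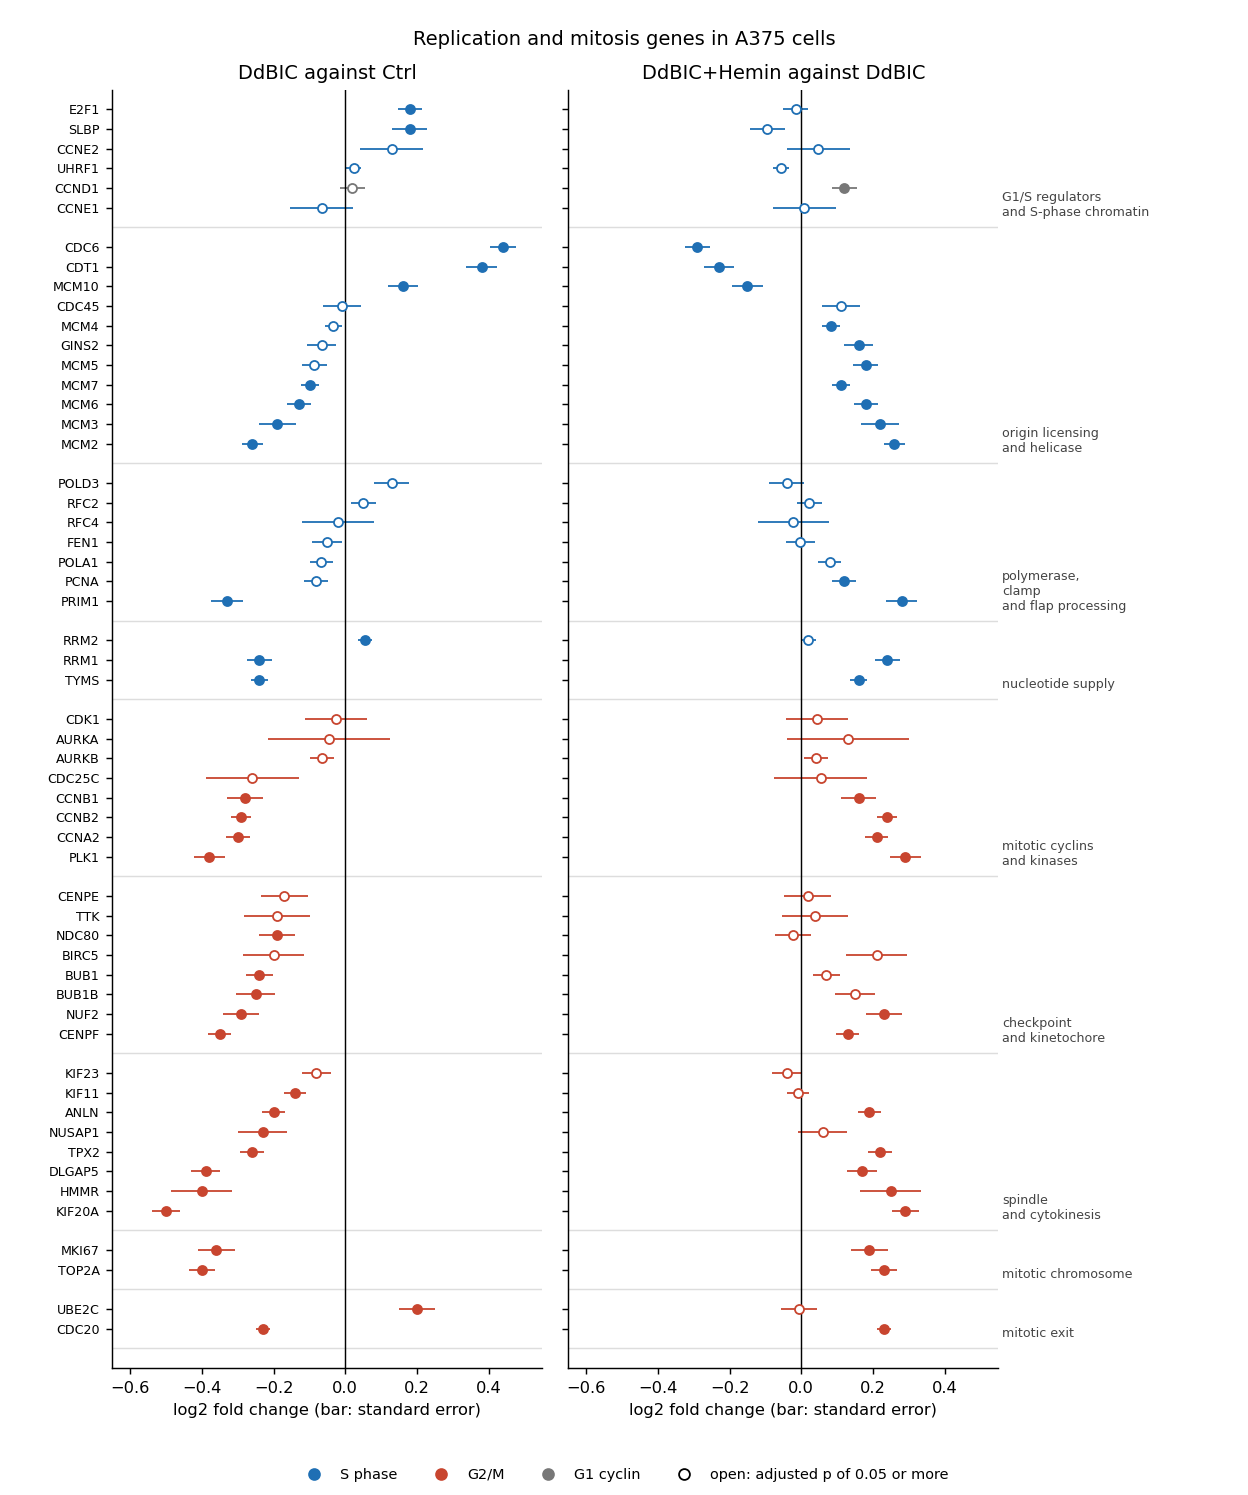
Log2 fold change with its standard error (horizontal axis) of each gene, for DdBIC against Ctrl (left) and for DdBIC+Hemin against DdBIC (right), with 3 libraries a group and genes ordered by role. Both panels share the DdBIC libraries. Filled points passed the test, and in the left panel 19 filled G2/M points lie below 0 and 1, UBE2C, above it.

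Of 11 genes of origin licensing and the helicase 3 rose and 4 fell. With 11 genes, neither share is read as differing from the 24.5% of well-measured genes that rose or the 22.7% that fell. CDC6, the ATPase that loads the helicase onto origins (chr17:40287633-40304657), stood at 133, 142 and 128 CPM in Ctrl and at 185, 185 and 179 CPM in DdBIC libraries. All DdBIC values lay above all Ctrl values, a rise of 0.44 ± 0.035 (log2, standard error) with adjusted p = 2.56e-06. CDT1, its partner in loading, went from 100, 98.9 and 93.2 CPM to 129, 127 and 122 CPM, a rise of 0.38 ± 0.042 with adjusted p = 3.64e-05. MCM10, which helps to start the loaded helicase, rose less, by 0.16 ± 0.042 (adjusted p = 0.0103), a call lost with upper-quartile scaling. MCM2, a subunit of the MCM2 to MCM7 ring, measured 474, 504 and 484 CPM in Ctrl and 409, 411 and 406 CPM in DdBIC libraries, and it fell by 0.26 ± 0.029 (adjusted p = 4.36e-05). MCM3, MCM6 and MCM7 fell by 0.19, 0.13 and 0.099, while MCM4 and MCM5 had values of -0.033 and -0.087 that did not pass the test, so that all 6 subunits lay below 0, also under each of 3 other scalings. The MCM3 call was lost without Ctrl replicate 1 and when only the compared groups were fitted. CDC45 and GINS2, which join the ring to form the active helicase, had -0.008 and -0.066 and did not pass.

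At the replication fork, PRIM1, the primase subunit that lays down RNA primers, was the S-phase gene with the greatest fall. It held 29.9, 29.6 and 30.5 CPM in Ctrl and 23.2, 23.4 and 24.6 CPM in DdBIC libraries, a change of -0.33 ± 0.044 (adjusted p = 0.000137). Its partner in the primosome, the polymerase subunit POLA1, had -0.067. PCNA had 315, 303 and 302 CPM in Ctrl and 285, 290 and 295 CPM in DdBIC libraries. Those groups did not overlap, yet the change of -0.081 ± 0.034 missed the threshold (adjusted p = 0.0825). POLD3, FEN1, RFC2 and RFC4, for lagging-strand synthesis, flap cutting and clamp loading, lay between -0.051 and 0.13 and none passed. RFC4 spread by 0.42 (log2) within the DdBIC group.

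Of 3 genes of nucleotide supply 1 rose and 2 fell, where 24.5% of well-measured genes rose and 22.7% fell. TYMS fell from 363, 376 and 358 CPM to 312, 308 and 306 CPM, by 0.24 ± 0.024 (adjusted p = 1.35e-05). The gene overlaps ENOSF1 on the opposite strand, and whether counting used strand is not given in the sources used here. RRM1, the large subunit of ribonucleotide reductase, fell by the same 0.24 ± 0.035 (adjusted p = 0.000276), with 247, 264 and 262 CPM against 219, 210 and 225 CPM. RRM2, the small subunit, had 539, 540 and 543 CPM in Ctrl and 566, 558 and 563 CPM in DdBIC libraries, a rise of 0.055 ± 0.02 at adjusted p = 0.0481. That call held in only 3 of 19 alternative fits, and upper-quartile scaling turned its sign.

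Among regulators of S-phase entry and S-phase chromatin 2 of 6 rose, a share near background at this number, and the other 4 did not pass the test. E2F1, the activator of the wave, measured 97.5, 104 and 99.3 CPM in Ctrl and 111, 113 and 115 CPM in DdBIC libraries, a rise of 0.18 ± 0.034 (adjusted p = 0.002). SLBP, which binds histone mRNA in S phase, rose by 0.18 ± 0.049 (adjusted p = 0.0149), a call lost with upper-quartile scaling and without Ctrl replicate 2 or DdBIC replicate 2. The E-type cyclins were low and noisy, with CCNE1 at -0.066 ± 0.088 (adjusted p = 0.597) and CCNE2 at 0.13 ± 0.088 (adjusted p = 0.276). CCND1, the D-type cyclin that starts the sequence, had 813, 812 and 803 CPM in Ctrl and 805, 814 and 841 CPM in DdBIC libraries (0.019 ± 0.035, adjusted p = 0.717). UHRF1, which keeps DNA methylation through replication, had 0.023.

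Among mitotic cyclins and kinases, PLK1 changed most. This kinase of mitotic entry and spindle assembly went from 419, 429 and 425 CPM to 323, 346 and 311 CPM, a fall of 0.38 ± 0.043 (adjusted p = 4.17e-05). CCNA2, cyclin A2, held 143, 142 and 142 CPM in Ctrl and 116, 117 and 113 CPM in DdBIC libraries, a fall of 0.30 ± 0.033 (adjusted p = 2.96e-05). CCNB2 fell by 0.29 ± 0.028 and CCNB1 by 0.28 ± 0.049 (adjusted p = 1.37e-05 and 0.000913), and these cyclins drive entry into mitosis with CDK1. For their own kinase no change was detected. CDK1 counted 73.7, 94.3 and 87.4 CPM in Ctrl and 81.2, 79.4 and 90.2 CPM in DdBIC libraries, overlapping groups with a difference of -0.026 ± 0.087 (adjusted p = 0.846). CDC25C, which activates CDK1, had -0.26 ± 0.13 at the lowest counts of the set and did not pass (adjusted p = 0.141). AURKB, the kinase of the chromosomal passenger complex, had -0.065 and did not pass.

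Limits of single genes bear on AURKA, CCNB1 and BIRC5. AURKA, the centrosomal kinase, had 171, 173 and 99.1 CPM in Ctrl, so that Ctrl replicate 3 stood apart by 0.80 (log2), and the difference from DdBIC was -0.046 ± 0.17. Without that library it was -0.27 ± 0.047 (adjusted p = 0.00176). For 3 of the 55 genes the ratio of CPM to deposited TPM moved by more than 0.4 (log2) between libraries, beside a median of 0.08. They were BIRC5, CCNB1 and DLGAP5. CCNB1 measured 277, 235 and 283 TPM in Ctrl and 277, 212 and 220 TPM in DdBIC libraries, so its groups overlapped on that scale. Mean TPM moved in the direction of the count-based call in 33 of 33 genes called in DdBIC against Ctrl.

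Of 8 checkpoint and kinetochore genes 5 were called lower, beside 17.2% of all genes tested, and the other 3 did not pass. CENPF, a protein of the outer kinetochore, fell from 416, 411 and 424 CPM to 317, 334 and 327 CPM (-0.35 ± 0.032, adjusted p = 8.38e-06). NUF2 and NDC80, which belong to the same microtubule-binding complex, fell by 0.29 and 0.19. The checkpoint kinases BUB1 and BUB1B fell by 0.24 and 0.25. TTK, CENPE and BIRC5 (survivin) lay at -0.19, -0.17 and -0.20 without passing, with adjusted p of 0.124, 0.0612 and 0.0851.

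Spindle and cytokinesis genes held the greatest fall of the 55. KIF20A, a kinesin of the central spindle (chr5:138178719-138187715), stood at 218, 220 and 217 CPM in Ctrl and at 148, 159 and 155 CPM in DdBIC libraries. The groups lay far apart beside their spread, and the change was -0.50 ± 0.038, a 29.4% decrease with adjusted p = 1.82e-06. HMMR and DLGAP5, which bind and stabilise spindle microtubules, fell by 0.40 ± 0.085 and 0.39 ± 0.041 (adjusted p = 0.00336 and 2.13e-05). TPX2, NUSAP1, ANLN and KIF11 fell by 0.26, 0.23, 0.20 and 0.14, of which the NUSAP1 call was lost without Ctrl replicate 1 or 3 or DdBIC replicate 1 and when only the compared groups were fitted. KIF23, a partner in the central spindle, had -0.081 and was the 1 of 8 not to pass, where 17.2% of all genes tested were called lower.

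TOP2A, the topoisomerase that untangles sister chromatids, fell from 521, 504 and 523 CPM to 374, 394 and 407 CPM (-0.40 ± 0.036, adjusted p = 6.85e-06). It lies 83.9 kb from CDC6 on chromosome 17 (chr17:40388516-40417950), and these neighbours moved in opposite directions. MKI67, which coats mitotic chromosomes and gives the Ki-67 antigen, had 830, 884 and 875 CPM in Ctrl and 663, 707 and 650 CPM in DdBIC libraries, a fall of 0.36 ± 0.052 (adjusted p = 0.000274). The pair of genes for mitotic exit went apart. CDC20 fell from 534, 539 and 531 CPM to 465, 454 and 450 CPM (-0.23 ± 0.02, adjusted p = 6.46e-06), whereas UBE2C rose from 217, 223 and 231 CPM to 256, 274 and 240 CPM (0.20 ± 0.05, adjusted p = 0.00825), the 1 rise among the 28 G2/M genes.

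**Figure D3:**
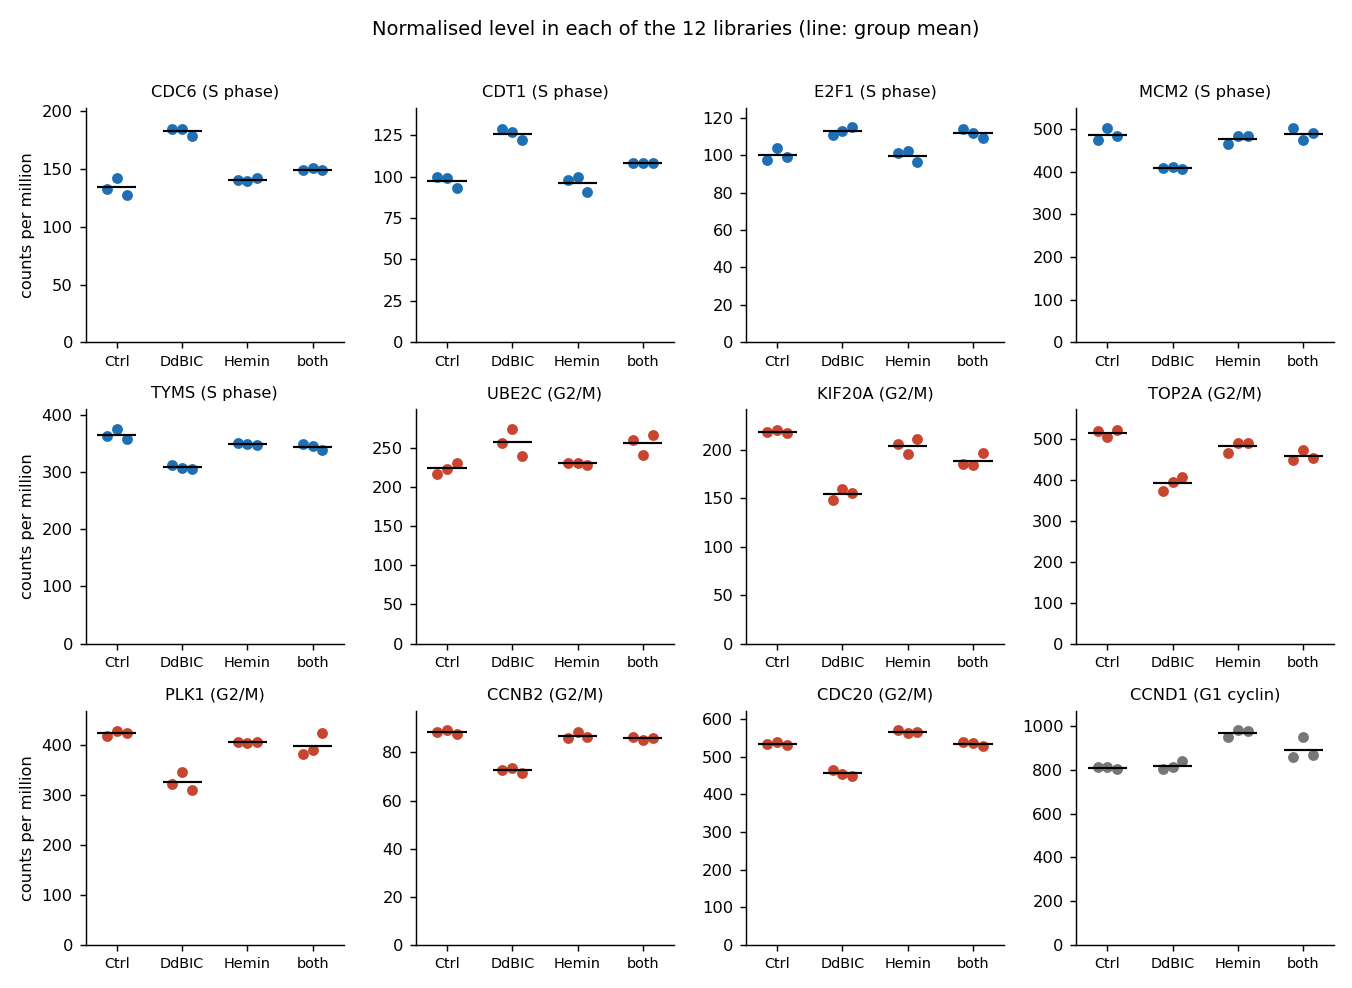
Normalised level in CPM (vertical axis, from 0) of 12 genes in each library of the 4 groups, with lines at group means. KIF20A, TOP2A, PLK1, CCNB2 and CDC20 are lowest in DdBIC libraries, and CDC6 and CDT1 highest there.

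The phases can be set side by side within each library as the mean log2 CPM of their genes relative to the Ctrl mean. G2/M genes averaged -0.25, -0.20 and -0.25 in the 3 DdBIC libraries, while Ctrl libraries stayed within 0.002 of 0. S-phase genes averaged -0.023, -0.0038 and -0.0052 in DdBIC and -0.014 to 0.011 in Ctrl libraries, so that those groups overlapped. In DdBIC+Hemin libraries they averaged 0.037 to 0.047, above every library of the other groups. The gap between S-phase and G2/M means was 0.22 ± 0.022 in DdBIC (SD, n = 3), 0.037 ± 0.018 in Hemin and 0.14 ± 0.038 in DdBIC+Hemin libraries. These averages describe a chosen list and were given no test.

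**Figure D4:**
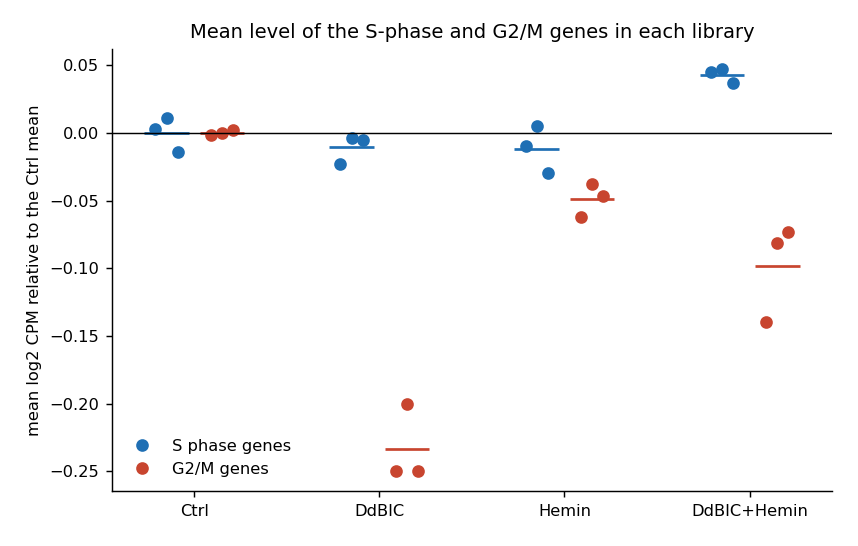
Mean log2 CPM of 26 S-phase and 28 G2/M genes relative to the Ctrl mean (vertical axis), each point a library and each line a group mean. G2/M points drop to between -0.25 and -0.20 with DdBIC and lie between -0.14 and -0.073 with DdBIC+Hemin, while S-phase points lie between 0.037 and 0.047 with DdBIC+Hemin and between -0.03 and 0.011 in the other groups.

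Few of these genes passed the test with hemin alone. No S-phase gene passed the edgeR test, with 2 of 26 at an unadjusted p below 0.05 and also 0 called by DESeq2, and 1 of 28 G2/M genes passed, with 8 at an unadjusted p below 0.05. Over all genes 1.47% were called higher and 2.59% lower, and 2383 of 14287 had an unadjusted p below 0.05. The G2/M gene was CDC20, which rose from 534, 539 and 531 CPM to 571, 563 and 565 CPM (0.083 ± 0.02, adjusted p = 0.0463), a call that held in 7 of 19 alternative fits and in 2 of the 12 that leave out 1 library. CCND1 had the clearest response, with 950, 984 and 979 CPM against 813, 812 and 803 CPM in Ctrl, a rise of 0.26 ± 0.035 (adjusted p = 0.00217) that held in all 19. E2F1, CCNE1, CCNE2 and PCNA had values between -0.10 and -0.0022. CCNA2, CCNB1, CDK1, TOP2A and MKI67 lay between -0.097 and 0.029, none of which passed. The G2/M median was -0.047, and the G2/M means of the 3 Hemin libraries, -0.062 to -0.038, lay below those of every Ctrl library.

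With hemin beside DdBIC, some mitotic genes stood higher than with DdBIC alone, and the rest did not pass the test. In DdBIC+Hemin against DdBIC, 14 of 28 G2/M genes rose and 0 fell, where 13.5% of all genes tested were called higher and 18.4% lower. DESeq2 also called 0 of them lower, and of the 16 with an unadjusted p below 0.05 none had a negative value. Their median was 0.15, beside -0.01 over all genes. Of the 26 S-phase genes 11 rose and 3 fell, with a median of 0.064. This comparison shares the DdBIC libraries with DdBIC against Ctrl, so low values there enter both.

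The 3 S-phase genes that fell were CDC6, CDT1 and MCM10. CDC6 measured 149, 151 and 149 CPM with both compounds, under all DdBIC values and over all Ctrl values (-0.29 ± 0.035 against DdBIC, adjusted p = 9.73e-05). CDT1 held 108 CPM in each of the 3 libraries (-0.23 ± 0.042, adjusted p = 0.0017). MCM10 fell by 0.15 ± 0.042 (adjusted p = 0.0184), a call that held in 15 of 19 alternative fits and not without DdBIC replicate 2 or DdBIC+Hemin replicate 1. All 6 ring subunits were called higher, from MCM4 at 0.083 ± 0.024 to MCM2 at 0.26 ± 0.029 (adjusted p = 0.0214 and 5.23e-05), though MCM4 was not called without DdBIC replicate 1 or DdBIC+Hemin replicate 2 or when only the compared groups were fitted. MCM2 had 502, 475 and 492 CPM with both compounds, in the range of Ctrl and above every DdBIC library. PRIM1 rose by 0.28 ± 0.044, RRM1 by 0.24 ± 0.035, TYMS by 0.16 ± 0.024 and PCNA by 0.12 ± 0.034 (adjusted p = 0.000612, 0.0004, 0.000418 and 0.0204). E2F1 had 114, 112 and 109 CPM (-0.016 ± 0.034, adjusted p = 0.768), and the 12 S-phase genes that did not pass lay between -0.095 for SLBP and 0.11 for CDC45. GINS2 rose by 0.16 and CCND1 by 0.12. The PCNA call held in 15 of 19 alternative fits and was lost without DdBIC replicate 1 or DdBIC+Hemin replicate 1 or 2, and the CCND1 call held in 16 and was lost without DdBIC replicate 1 or 2.

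On the mitotic side KIF20A held 185, 184 and 196 CPM with both compounds, above every DdBIC library and below every Ctrl library (0.29 ± 0.038, adjusted p = 0.000178). PLK1 came to 383, 390 and 424 CPM (0.29 ± 0.043, adjusted p = 0.000392), a range that reached into Ctrl. CDC20 counted 539, 536 and 529 CPM, level with Ctrl (0.23 ± 0.02, adjusted p = 9.9e-06). CCNB2, TOP2A, CCNA2 and MKI67 rose by 0.24, 0.23, 0.21 and 0.19 (adjusted p = 6.44e-05, 0.000568, 0.000617 and 0.0168). HMMR rose by 0.25 ± 0.085 and CCNB1 by 0.16 ± 0.049 (adjusted p = 0.042 and 0.0301), calls that held in 13 and 15 of 19 alternative fits, and the MKI67 call was lost without DdBIC replicate 1 or 3. DLGAP5 rose by 0.17 ± 0.041 (adjusted p = 0.00751), but it was the 1 of 29 genes called whose mean TPM moved the other way. CDK1 had 0.044. UBE2C had 260, 241 and 266 CPM (-0.0063 ± 0.05), within the range of DdBIC libraries. The 14 G2/M genes that did not pass lay between -0.041 for KIF23 and 0.21 for BIRC5.

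Against Ctrl, some mitotic genes were lower in cells given both compounds. The Ctrl libraries are shared with DdBIC against Ctrl, so high values there enter both. In this comparison 7 of 28 G2/M genes were called lower and 1, UBE2C, higher, beside 6.74% lower and 5.66% higher among all genes, and the G2/M median was -0.12. CENPF (-0.23 ± 0.032, adjusted p = 0.000914), KIF20A (-0.22 ± 0.038, adjusted p = 0.0035) and DLGAP5 (-0.22 ± 0.04, adjusted p = 0.00453) led them, followed by NDC80, BUB1, TOP2A and KIF11 between -0.21 and -0.15. MKI67, CCNB1 and CCNA2 had -0.17, -0.13 and -0.096 and did not pass. Among S-phase genes 4 of 26 were called higher, CDC6, CDT1, E2F1 and RRM2, at 0.15, 0.15, 0.16 and 0.075, and 1 lower, TYMS, at -0.084. With library size as the only scaling that split became 2 higher and 1 lower, and it was 1 and 0 without Ctrl replicate 1. CDC6, CDT1, RRM2 and TYMS passed in 16, 9, 10 and 5 of 19 alternative fits, and E2F1 in all 19. The UBE2C call was lost without Ctrl replicate 1 or 2 or DdBIC+Hemin replicate 1 or 3. Without DdBIC+Hemin replicate 1, 5 G2/M genes were called, all lower, and BUB1 and NDC80 were not among them, nor were they called without Ctrl replicate 3. CCND1 rose by 0.14 ± 0.035 (adjusted p = 0.0229), a call that held in 14 fits and was lost without any 1 of the Ctrl libraries.

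The interaction asks whether adding hemin altered what DdBIC did, using all 4 groups. It was called for 21 genes with a positive value and 2 with a negative value, out of 55, where 6.40% of all genes were called positive and 10.2% negative. Of the G2/M genes 13 of 28 were positive and 0 negative, all 15 with an unadjusted p below 0.05 were positive, and DESeq2 gave 14 and 0. Among the genes called, KIF20A led with 0.39 ± 0.054 (adjusted p = 0.000551). Its DdBIC effect was -0.50 without hemin and -0.12 with it. PLK1 went from -0.38 to -0.025 and TOP2A from -0.40 to -0.073, interactions of 0.35 ± 0.06 and 0.33 ± 0.05 (adjusted p = 0.00226 and 0.00118). Of the S-phase genes 8 were positive, led by MCM2 at 0.29 ± 0.041, RRM1 and PRIM1 at 0.27 each and TYMS at 0.23, and 2 were negative, CDC6 at -0.35 ± 0.049 and CDT1 at -0.21 ± 0.059 (adjusted p = 0.000578 and 0.0327). For CDC6 the DdBIC effect of 0.44 became 0.088. The 10 S-phase calls dropped to 6 without Ctrl replicate 2, Hemin replicate 1 or Hemin replicate 3, and those of PCNA, MCM5 and CDT1 held in 5, 6 and 8 of 18 alternative fits. Among the G2/M genes MKI67 held in 9 and BUB1 in 13.

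For several genes that DdBIC changed, no difference in its effect was detected between cells with and without hemin. E2F1 had 0.18 without and 0.16 with hemin (interaction -0.014 ± 0.048, adjusted p = 0.895), UBE2C 0.20 and 0.15 (-0.047 ± 0.07, adjusted p = 0.725), and KIF11 -0.14 and -0.17 (-0.021 ± 0.044, adjusted p = 0.818). The standard errors limit how small a difference could have been detected, most so for UBE2C. The effect was nearer 0 with hemin in 26 of 28 G2/M genes and 23 of 26 S-phase genes, and its median with hemin was -0.057 and 0.037. Values of 21 G2/M genes were still below 0. How often the effect was nearer 0 over all genes is not given here, so these counts are not read as particular to the 55 genes. Over all genes tested, 20.0% were called higher and 17.2% lower in DdBIC against Ctrl. In DdBIC+Hemin against Ctrl, which also holds the effect of hemin itself, those shares were 5.66% and 6.74%. The effects with and without hemin rest on separate libraries.

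**Figure D5:**
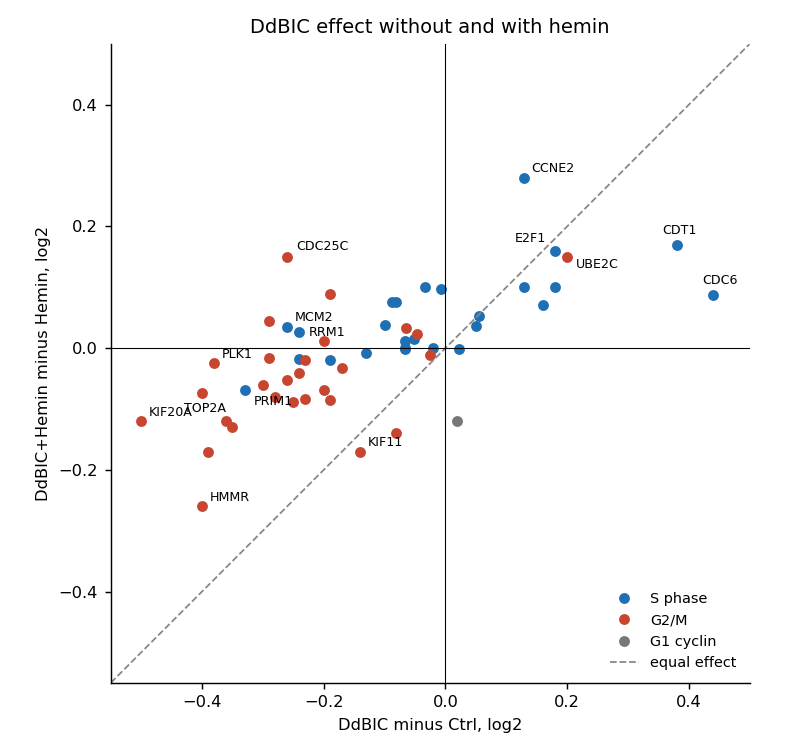
Effect of DdBIC on each of the 55 genes without hemin (horizontal axis, DdBIC minus Ctrl, log2) and with hemin (vertical axis, DdBIC+Hemin minus Hemin, log2), with a dashed line of equal effect. KIF20A moves from -0.50 to -0.12 and CDC6 from 0.44 to 0.088, while E2F1 and KIF11 lie close to the line.

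Other genes of the same machinery, taken from lists, were counted in the same fit. Of 98 further mitosis genes 34 fell and 9 rose with DdBIC, with a median of -0.095, where 22.7% of the well-measured genes described above fell and 24.5% rose. NCAPD2, a condensin subunit, fell by 0.44 ± 0.021 (adjusted p = 5.19e-08), and LBR, HMGB3 and PIMREG by 0.50, 0.50 and 0.43. FBXO5 (EMI1), the inhibitor of the anaphase-promoting complex before mitosis, rose by 0.50 ± 0.082 (adjusted p = 0.000645) and fell by 0.67 ± 0.082 when hemin was added (adjusted p = 0.000109), and the centromere genes CENPC and CENPL and the cohesin protector SGO1 rose by 0.43, 0.40 and 0.29. In DdBIC+Hemin against DdBIC 23 of the 98 rose and 12 fell, beside 19.2% and 23.0% of well-measured genes, among them CENPL, CENPC and CKS2 by 0.54, 0.50 and 0.29, while CENPM, PIMREG, HMGB3 and LBR rose by 0.33, 0.27, 0.25 and 0.24.

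Of 48 further replisome genes 12 rose and 13 fell with DdBIC (median -0.026), shares near the 24.5% and 22.7% of well-measured genes given above. RPA1, which coats single-stranded DNA, fell by 0.32 ± 0.023 (adjusted p = 1.41e-06) and RNASEH2A by 0.30. DNA2, the chromatin assembly factor CHAF1A and DTL, which targets CDT1 for destruction, rose by 0.33, 0.26 and 0.25. With hemin added, where 19.2% of those well-measured genes rose and 23.0% fell, 10 of the 48 rose, among them RNASEH2A by 0.27 and the polymerase subunit POLD2 by 0.30, and 8 fell, among them ORC2, RECQL4 and CHAF1A by 0.27, 0.22 and 0.19. POLE3 and GINS4 had the greatest values of that list, but their libraries fell on 2 levels within a group. POLE3 had 148, 48.7 and 147 CPM in Ctrl and 49.3, 46.4 and 46.1 CPM in DdBIC libraries (-1.28, adjusted p = 0.0156), and GINS4 33.0, 13.1 and 38.2 CPM in DdBIC libraries (1.02, adjusted p = 0.0263). Without Ctrl replicate 2 POLE3 gave -1.64 (adjusted p = 4.62e-09), and without DdBIC replicate 2 GINS4 gave 1.36 (adjusted p = 2.88e-06). The POLE3 call was lost without Ctrl replicate 1 or 3 (adjusted p = 0.0559 in both), and the GINS4 call without DdBIC replicate 1 or 3 (adjusted p = 0.084 and 0.0956). With hemin added to DdBIC the values were 1.65 for POLE3 and -0.94 for GINS4.

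Among 49 cell cycle regulators from a further list 13 rose and 11 fell in DdBIC against Ctrl (median -0.033), again near the 24.5% and 22.7% of well-measured genes. The antiproliferative genes BTG1 and BTG2 rose by 1.25 ± 0.037 and 1.01 ± 0.088 (adjusted p = 1.41e-09 and 5.61e-06), and CDKN1A, the p21 inhibitor of cyclin-dependent kinases, from 64.9, 55.3 and 57.5 CPM to 96.2, 82.0 and 89.0 CPM (0.59 ± 0.067, adjusted p = 4.62e-05). LIN37, a MuvB subunit, rose by 0.56. The inhibitor CDKN2C fell by 0.60, SKP2, which degrades the inhibitor p27, by 0.45, CCNF by 0.43 and CDK4 by 0.26. In DdBIC+Hemin against DdBIC 9 rose and 11 fell, beside 19.2% and 23.0% of well-measured genes. SKP2 rose by 0.46 ± 0.049 (adjusted p = 3.55e-05), and FOXM1 and MYBL2, which encodes B-MYB, rose by 0.26 and 0.24, as did CDKN3 by 0.28. CDKN1C, BTG2, BTG1 and WEE1 fell by 0.77, 0.73, 0.70 and 0.52. CDKN1C was low, at means of 3.49 CPM in DdBIC and 2.05 CPM in DdBIC+Hemin libraries. The WEE1 call (adjusted p = 0.0415) was lost in several fits, among them upper-quartile scaling, the replicate block and leaving out each DdBIC library in turn. CDKN1A held 86.9, 83.0 and 84.7 CPM with both compounds (-0.07, adjusted p = 0.48 against DdBIC).

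The calls can be set beside the promoter elements, where 22.7% of well-measured genes were called lower and 24.5% higher with DdBIC. Of the 17 G2/M genes with CHR letters 15 fell with DdBIC and 0 rose, with a median of -0.25, and of the 6 G2/M genes without them 3 fell, KIF20A, CCNA2 and CCNB1, with a median of -0.27. MCM6 and RRM1, the S-phase genes with CHR letters, both fell. The 12 S-phase genes with E2F letters went both ways, 3 up and 5 down. With 12 genes, neither share is read as differing from the 24.5% of well-measured genes that rose or the 22.7% that fell. CDT1 and TYMS, whose printed promoters carry the same E2F letters on the reverse strand 35 and 39 bases before the start, moved by 0.38 and -0.24. No test was made between these small groups.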

How the data were processed

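RNA-seq of 12 A375 libraries, 3 per group, was deposited as a gene table on hg38. Per the labels, the authors used Trim Galore, Subread and featureCounts. The deposited table gives raw read counts and also TPM from the authors, whose derivation is not given in the sources used here. Their FPKM values were not used here. The annotation and the strand setting of counting are not given in the sources used here, so genes that overlap can share reads.

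Counts were scaled with TMM factors, filtered with filterByExpr (14287 of 20263 genes kept) and fitted over all 4 groups with edgeR 4.0.16 in R 4.3.3 (robust quasi-likelihood F-test, 8 residual degrees of freedom). Calls are at a Benjamini-Hochberg adjusted p of 0.05 over all genes tested. Group contrasts and the interaction came from this fit, and the script was tested on simulated data. Library values are CPM with TMM factors, and log2 CPM used a prior count of 2. TPM served for levels between genes and for cell markers. Columns that no label maps numbered 0. Total counts were 37951275 to 44358912 per library.

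The members and lists were chosen with earlier results of these data known. The genes given in full are, per comparison and phase, up to 6 called members with the greatest rise and 6 with the greatest fall, with 10 cell cycle genes always named (CCND1, CCNE1, CCNE2, E2F1, CCNA2, CCNB1, CDK1, PCNA, MKI67, TOP2A). From each further list they are up to 4 in each direction. Some items that this rule selects are not reported here. Alternatives were DESeq2 1.42.0, upper-quartile or library-size scaling, no filter, at least 10 counts in every sample, only the groups compared, a replicate block, and leaving out each library.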

Additional observations from a re-analysis of the deposited data

Results flagged for a closer look

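The effect of DdBIC on 23 of the 55 genes differed between cells without and with hemin, by the interaction term of the edgeR fit over 4 groups with 3 libraries each. Over all genes tested 6.40% were called positive and 10.2% negative. The S-phase calls, 10 in all, dropped to 6 without Ctrl replicate 2, Hemin replicate 1 or Hemin replicate 3, and those of PCNA, MCM5, CDT1 and MKI67 held in 5, 6, 8 and 9 of 18 alternative fits. Values are the effect with hemin minus the effect without, on the log2 scale. Among genes of the spindle and cytokinesis it was 0.39 for KIF20A, 0.22 for DLGAP5, 0.21 for ANLN and 0.20 for TPX2. Among mitotic cyclins and kinases it was 0.35 for PLK1, 0.27 for CCNB2 and 0.24 for CCNA2. Kinetochore and checkpoint genes gave 0.33 for NUF2, 0.22 for CENPF and 0.20 for BUB1, and the chromosome genes 0.33 for TOP2A and 0.24 for MKI67. CDC20 of mitotic exit had 0.14. In S phase the helicase subunits had 0.29 for MCM2, 0.16 for MCM5, 0.14 for MCM7 and 0.13 for MCM4. Nucleotide supply gave 0.27 for RRM1 and 0.23 for TYMS, and the fork genes 0.27 for PRIM1 and 0.16 for PCNA. The loaders CDC6 and CDT1 had the opposite sign, at -0.35 and -0.21.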

How the results depend on the processing

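The results of genes given in full by the naming rule, 102 in all, were recomputed under 19 alternatives (18 for the interaction), 7 of which kept every library. Of their 1917 values, 1752 kept their side of the threshold, 151 lost and 13 gained a call, and 1 called value turned sign, RRM2 in DdBIC against Ctrl, which was -0.0058 with upper-quartile factors. Among the 1752, 32 values of 12 results without a call also changed sign, those of CCND1, CDK1, CCNE1, CCNE2 and E2F1. Uncalled values near 0 outside the 102, such as FEN1, RFC4 and CDC45, changed sign too. The cause was not tested.

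The number of G2/M genes called in Hemin against Ctrl, 1, became 2 with DESeq2 (1 higher, 1 lower), 0 without the filter and 0 with the replicate block. The number of S-phase genes called in DdBIC+Hemin against Ctrl, 5, became 3 with library size only, 1 with only the groups compared and 3 with the replicate block. The block left the other counts within 1.5 times their value, but in DdBIC+Hemin against Ctrl it gave 7 lower and 0 higher G2/M genes, so UBE2C was not called. Libraries with the same number deviated together with a correlation of -0.046 to 0.081, so the numbers gave no sign of pairing.

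Leaving out 1 library at a time, S-phase and G2/M calls ran from 11 to 14 and 19 to 21 in DdBIC against Ctrl, 12 to 15 and 12 to 16 in DdBIC+Hemin against DdBIC, 0 to 0 and 0 to 1 in Hemin against Ctrl, 1 to 4 and 5 to 9 in DdBIC+Hemin against Ctrl, and 6 to 9 and 10 to 13 for the interaction. The S-phase median minus the G2/M median ran from 0.18 to 0.23, -0.12 to -0.053, 0.0089 to 0.058, 0.11 to 0.19 and -0.14 to -0.078 in the same order. With 3 libraries a group, the widest standard errors in DdBIC against Ctrl were those of AURKA (0.17) and CDC25C (0.13).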
